A study of Nymphaea colorata and Nymphaea micrantha with 16 samples.

Results

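The subject is a module of 150 genes whose mRNA was higher in young leaves, and lower in mature leaves, of the viviparous water lily *Nymphaea micrantha* (X-species) than in leaves of the nonviviparous *N. colorata* (L-species). The genes were chosen on these libraries themselves. Levels were taken as log2(FPKM + 1), where FPKM is the fragment count of a gene corrected for its length and for library size, and 1 is a pseudocount. A gene qualified when its mean in X1 exceeded that in L1 by at least 1, and its mean in X4 was below that in L4 by at least 0.5. The smaller of both differences was its score. Of 31475 genes in the table, 264 passed both thresholds and the 150 with the highest scores became the members. All 150 were among the 18160 genes tested, which had at least 1 FPKM in at least 2 libraries. Because stage 1 and stage 4 chose the members, values of those stages are given as a description with no test. Only differences among groups of stages 2 and 3, whose libraries the choice did not use, were tested. The filter and the spread of each gene in those tests were taken over all 16 libraries. The tests are therefore not wholly free of the choice.

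Leaves of wild-type plants of both species were collected at 4 stages, and 16 libraries of poly(A) RNA were analysed, 2 for each of the 8 groups. Leaves of stage 1 (L1 and X1) were rolled, under water and 1 to 2 cm long, and those of stage 2 (L2 and X2) were still rolled and under water at 4 to 6 cm. At stage 3 (L3 and X3) the half-rolled leaf reached the water surface with its tip, and at stage 4 (L4 and X4) it was fully open and, in the X-species, bore the viviparous mark at its center. Plants grew in containers and leaves of several plants were mixed for each sample, so plants were not measured singly, and p-values measure the spread between the libraries of a group.

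The photosynthetic apparatus of a leaf is built as it expands: antenna proteins that bind chlorophyll pass light energy to the photosystems, electron transport and ATP synthase turn it into chemical energy, and the reductive pentose-phosphate cycle uses that energy to fix CO2. Genes for these parts are switched on largely together in developing chloroplasts, and light, sugars and the daily rhythm are known to act on them. The outer surface of an aerial leaf is covered by lipids whose precursors are made from very long-chain fatty acids, and lipid transfer proteins are thought to help in their export. Roles given below for single genes are the gene ontology (GO) terms and KEGG pathways assigned to the IDs in the study's supplementary tables. The readable part of the GO terms covered 104 of the 150 members (69.3%), against 20.9% of the genes tested. Those tables were drawn up for genes differentially expressed in these samples, and are therefore not independent of the choice of members. In whole leaves, fewer cells of a type and less RNA per cell cannot be told apart.

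The members were sorted by their terms. Of the 150, 13 had terms of light harvesting, photosystems or chlorophyll, 11 of electron transport, ATP synthase or the thylakoid lumen, and 9 of carbon fixation or photorespiration, 33 in all. A further 7 had terms of lipid transfer, very long-chain fatty acids or the cell wall, 5 of light or karrikin signalling or rhythm, 11 of hormones, and 4 of sulphur, nitrogen or sugar metabolism. Another 44 had other terms and 46 had none. These classes were drawn up after the annotations of the members had been read. Over all libraries, 38 of 150 members (25.3%) had a mean of at least 100 FPKM, against 5.74% of the genes tested. Of those 38, 21 were among the 33 photosynthesis genes. That mean includes X1 and L4, where the rule set the members above the other species. The pseudocount also lowers the differences of low genes, so this share is not independent of the choice.

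**Figure D1:**
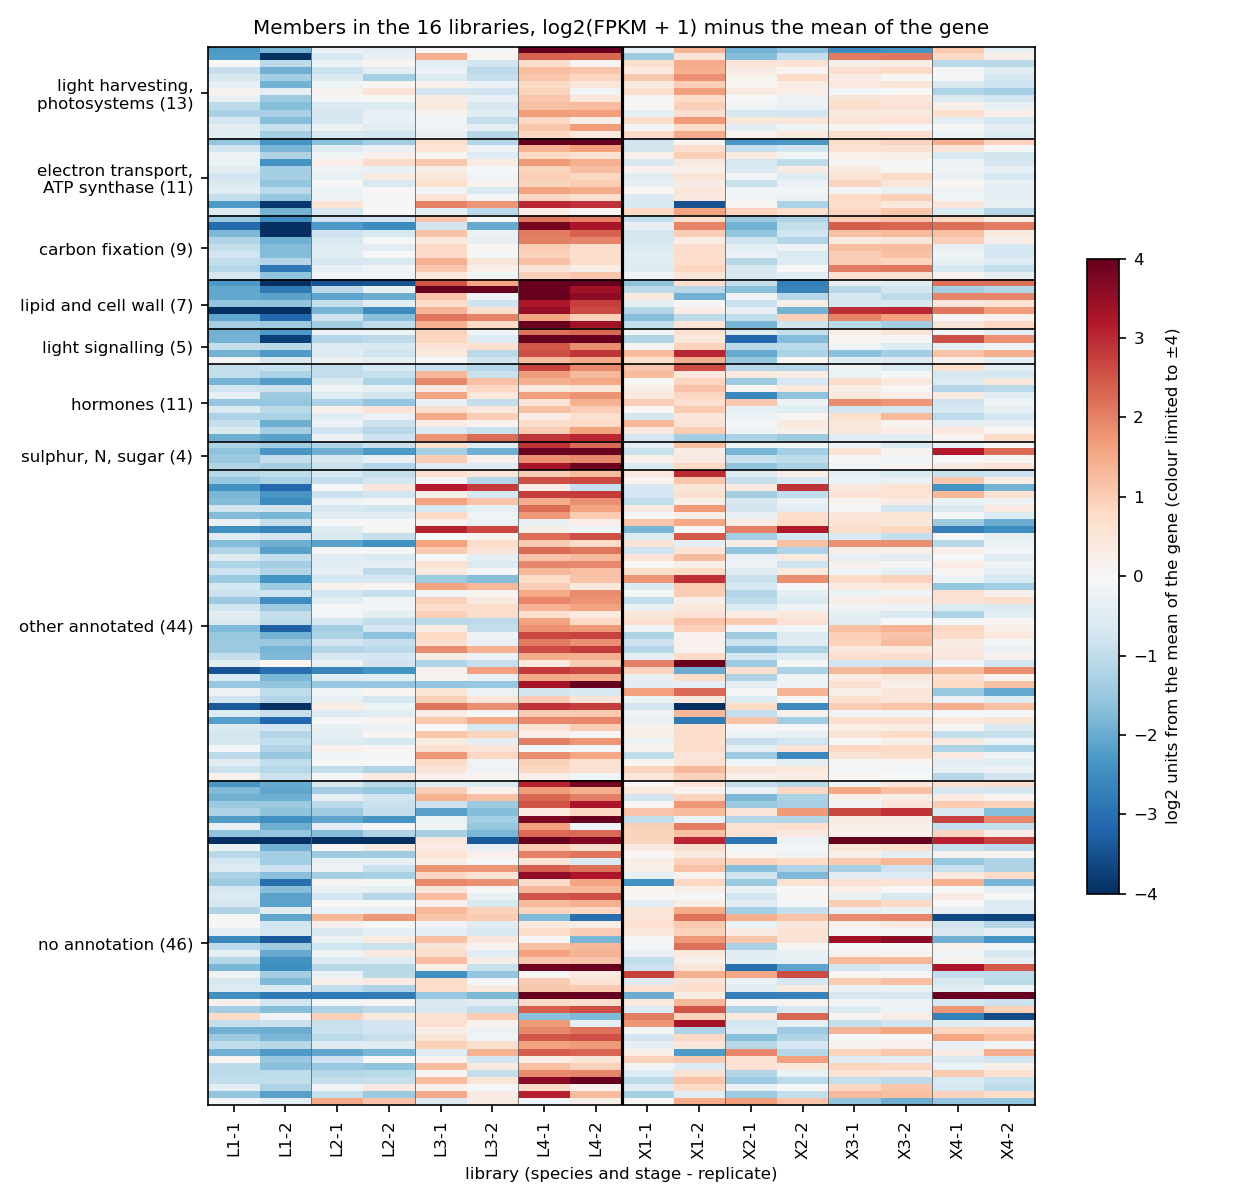
The level of each of the 150 members (rows, grouped by annotation class with the number of members) in each of the 16 libraries (columns, L-species left of the black line), as log2(FPKM + 1) minus the mean of that gene over the libraries, with red above and blue below the mean. The L-species libraries go from blue at stage 1 to red at stage 4, and the X-species libraries hold no such steady change, with replicate 2 of X1 redder than replicate 1.

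The rule fixes that the difference of stage 4 from stage 1 was greater in the L-species than in the X-species for each member, so the courses below are a description. In the L-species, the mean at stage 4 was above that at stage 1 in 147 members, 91 members (60.7%, against 10.8% of the genes tested) had a higher mean at each stage than at the stage before it, and the highest mean lay at stage 4 in 126. In the X-species, 97 members had a lower mean at stage 4 than at stage 1 and 53 a higher mean. The highest mean of the X-species lay at stage 1 in 58 members, at stage 2 in 5, at stage 3 in 60 and at stage 4 in 27. The mean of X2 was below that of X1 in 130 members (86.7%), against 56.3% of the genes tested. These counts rest in part on stages 1 and 4 and carry no test.

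As chosen by the rule, the median difference of X1 from L1 over the members was 1.5 on the log2 scale, and that of X4 from L4 was -1.46. The medians over the genes tested were -0.23 and 0.0002, and they were -0.18 at stage 2 and -0.30 at stage 3. After scaling the libraries by median ratios, the medians of the genes tested lay between -0.09 and -0.01, so directions are read below against a general shift toward lower values in the X-species. Both libraries of X1 lay above both of L1 in 141 members (25.8% of the genes tested), and both of X4 lay below both of L4 in 149 (41.7%), which the rule largely fixed.

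The stage 1 libraries of each species differed from each other in the members, and the membership depends on them. Replicate 2 of X1 was above replicate 1 in 132 of 150 members (88%), against 37.9% of the genes tested, and replicate 1 of L1 was above replicate 2 in 130 members (86.7%), against 41.1%. Without replicate 2 of X1, 92 of the 150 members still passed the thresholds, among them 17 of the 33 photosynthesis genes. Without replicate 2 of L1, 101 members and 19 of the 33 did. Without any other library of stages 1 and 4, between 141 and 150 members did. Of the members, 51 were among the top 150 under each of the 10 alternative settings tried. The 3 last members inside the limit, NC9G0172150, NC1G0104330 and NC12G0249110, scored 1.00, 1.00 and 0.99, and the 3 first genes outside it, NC2G0008690, NC9G0274340 and NC4G0151930, scored 0.99, 0.99 and 0.98.

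At stages 2 and 3, the question is whether the members differed between the species in libraries that had no part in choosing them. A gene was a DEG when limma gave it an adjusted p (Benjamini-Hochberg, over the 18160 genes) under 0.05 and its log2 difference was 1 or more in size. For L2 vs. X2, 23 members were DEGs, where 25.3% of all genes tested were. Of these, 18 were higher in the X-species (12% of the members, 6.18% of the genes tested) and 5 were lower (3.33% and 19.1%). For L3 vs. X3, 38 members were DEGs (28.8% of the genes tested), 20 of them higher in the X-species (13.3% of the members, 6.57% of the genes tested) and 18 lower (12% and 22.2%). With median-ratio scaling, the L3 vs. X3 split became 31 higher and 12 lower members, against 9.56% and 17.7% of the genes tested. Of the 150 members, 98 were DEGs at neither stage, and the share of the genes tested called at neither was not taken.

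The median difference of the members was 0.06 at stage 2 and 0.22 at stage 3, and with median-ratio scaling 0.21 and 0.45, above the medians of the genes tested at both stages. The mean of X2 was above that of L2 in 82 members (40.3% of the genes tested), and the mean of X3 above that of L3 in 85 (34.7%). Both libraries of X2 lay above both of L2 in 52 members (23.2% of the genes tested) and below them in 41 (43.5%). At stage 3 these numbers were 67 (26.8%) and 46 (55.2%). By the sign of the mean difference, 53 members were above the L-species at both stages (27.5% of the genes tested), 36 were below at both (52.4%), 29 were above and then below (12.9%), and 32 were below and then above (7.29%). The 306 genes past the mirrored thresholds, lower in X1 and higher in X4, included 9 higher and 95 lower DEGs for L2 vs. X2, and for L3 vs. X3 there were 9 and 102. The sets were not tested against each other.

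**Figure D2:**
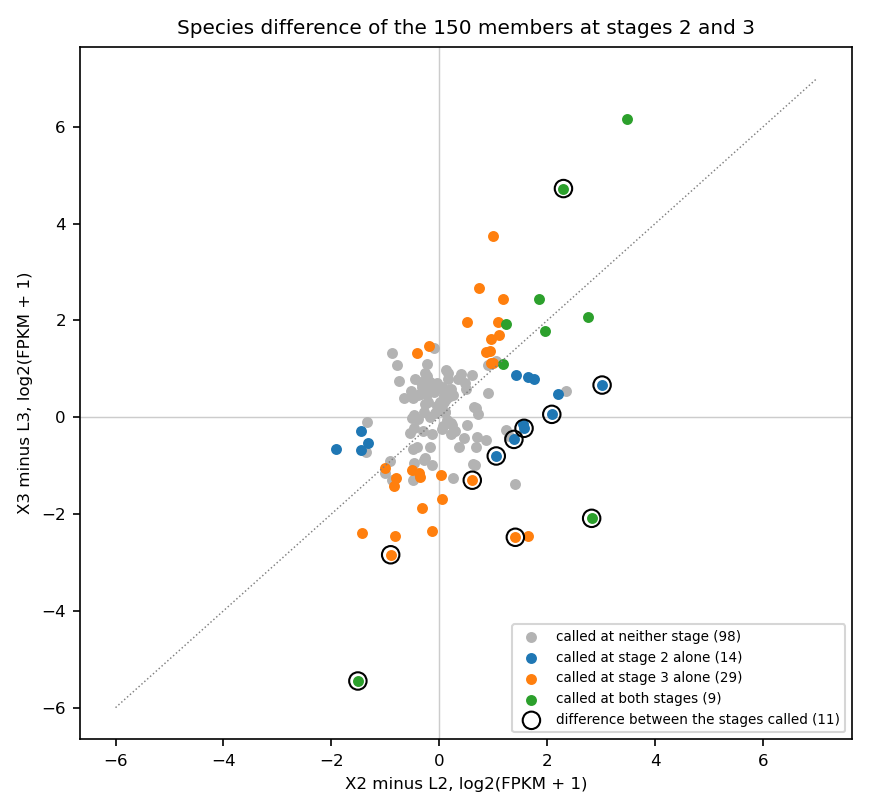
The species difference of each member at stage 2 (horizontal, X2 minus L2) and stage 3 (vertical, X3 minus L3), both in log2(FPKM + 1) over 2 libraries a group; colours mark at which stage a member was a DEG and rings mark the 11 members whose difference changed between the stages. Of the 150 points, 98 are DEGs at neither stage, 9 members were DEGs at both stages, and 10 of the 11 rings lie below the dotted line of equal differences.

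The change from stage 2 to stage 3 within each species was mostly upward in the members. For X2 vs. X3, 53 members were DEGs (11.5% of the genes tested), 48 of them higher at stage 3 (4.95%) and 5 lower (6.51%). For L2 vs. L3, 43 members were DEGs (14%), 41 higher at stage 3 (7.18%) and 2 lower (6.84%). In both species, 16 members rose as DEGs, and the share of the genes tested that did so was not taken. The X-species count depended on single libraries, being 21 without replicate 1 of X3 and 17 without replicate 2 of X3, where the lone library of the group is assumed to vary like the others. The L-species count was 20 without replicate 1 of L3 and 26 without replicate 2 of L2. Replicate 1 of L3 was above replicate 2 in 132 members (88%), against 44.3% of the genes tested, and in all 33 photosynthesis genes.

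For the photosynthesis genes, counts of calls were as follows. From X2 to X3, 15 of the 33 rose and 0 fell (4.95% and 6.51% of the genes tested). From L2 to L3, 1 rose and 1 fell (7.18% and 6.84%). Of the other 117 members, 33 rose and 5 fell from X2 to X3, and 40 rose and 1 fell from L2 to L3. The mean of X3 was above that of L3 in 29 of the 33 (34.7% of the genes tested). As DEGs for L3 vs. X3, 5 were higher and 1 lower (6.57% and 22.2%). For L2 vs. X2, 1 was higher and 0 lower (6.18% and 19.1%). That 1 was NC13G0027410, of chlorophyll biosynthesis, with 1.43 ± 0.37 (log2, SE, limma adjusted p = 0.00832). The median difference over the 33 was -0.09 at stage 2 and 0.56 at stage 3, where the other 117 members had 0.13 and -0.06, with no test between both sets. The change in the species difference between stages 2 and 3 was called by limma in 0 of the 33 (2.74% of the genes tested). The courses of the species are thus not shown to differ there for any single gene of the 33.

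All 9 carbon fixation and photorespiration genes rose from X2 to X3 as DEGs (4.95% of the genes tested), with a median log2 difference of 1.78. From L2 to L3, 1 of 9 rose as a DEG (7.18%), all 9 differences were above 0, and the median was 0.91. The change in the species difference was called in 0 of the 9. NC7G0247280, of the KEGG pathway of carbon fixation, was the most abundant member. It stood at 4177 and 1282 FPKM in the libraries of L1, 7352 and 8565 in L2, 19521 and 11087 in L3, and 13168 and 11311 in L4. In the X-species it stood at 6447 and 16777 FPKM in X1, 5916 and 9374 in X2, 38949.8 and 39955 in X3, and 6134 and 4816 in X4. The X3 libraries were the highest of all 16, the X2 libraries spanned those of L2, and the X4 libraries lay below those of L4. Its rise from X2 to X3 was 2.41 ± 0.71 (log2, SE, limma adjusted p = 0.0302), and was not called without replicate 1 of X2 or either replicate of X3 (adjusted p 0.108 to 0.123). X3 against L3 gave 1.42 ± 0.71 (limma adjusted p = 0.114), which did not pass. This gene alone made up 5.90% and 5.82% of the summed FPKM of the X3 libraries.

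NC9G0146480, with the term carbonate dehydratase activity, the interconversion of CO2 and bicarbonate, was the 1 gene of the class that was a DEG between the species. Its level was 19.6 and 8.08 FPKM in L1, 34.1 and 29.7 in L2, 104 and 42.3 in L3, and 2479 and 1672 in L4. In the X-species it was 137 and 669 FPKM in X1, 46.3 and 89.1 in X2, 923 and 881 in X3, and 798 and 717 in X4. The X-species libraries exceeded those of the L-species at stages 1, 2 and 3 without overlap and were below them at stage 4. X3 exceeded L3 by 3.75 ± 0.65 (log2, SE, limma adjusted p = 0.000482) and X2 by 3.79 ± 0.65 (limma adjusted p = 0.00169), while X2 against L2 gave 0.99 ± 0.65 (limma adjusted p = 0.235). NC10G0045250, NC11G0120850, NC4G0022760 and NC5G0048770, which like NC7G0247280 had the term reductive pentose-phosphate cycle, rose from X2 to X3, and the differences of these 4 of X3 from L3 lay between 0.40 and 0.78.

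In several antenna genes both X-species libraries were above those of the L-species at stage 2 already, though none of those named here was a DEG there. NC7G0235150, with terms of chlorophyll binding in both photosystems, stood at 277 and 137 FPKM in L1, 286 and 380.1 in L2, 440.2 and 254 in L3, and 1211 and 1124 in L4. In the X-species it stood at 665 and 1386 FPKM in X1, 647 and 559.8 in X2, 814 and 902 in X3, and 502 and 381 in X4. The libraries of X1, X2 and X3 all exceeded those of the L-species of the same stage, and the order was reversed at stage 4. X3 exceeded L3 by 1.36 ± 0.40 (log2, SE, limma adjusted p = 0.0143), a call lost without replicate 2 of L3 (0.135) or replicate 2 of X3 (0.0744).

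NC3G0227450, the only member in the KEGG pathway of antenna proteins, was higher in X3 than in L3 by 1.37 ± 0.34 (limma adjusted p = 0.00546, 0.0692 without replicate 2 of L3). Its libraries read 190.3 and 107 FPKM in L3 and 370.3 and 374 in X3. NC2G0033530, with chlorophyll binding in photosystem I, was higher by 1.12 ± 0.40 (limma adjusted p = 0.0351), with 606 and 357 FPKM in L3 and 995 and 1033 in X3. That call was lost without replicate 2 of L3 or either replicate of X3 (adjusted p 0.104 to 0.249). In all 3 genes both L3 libraries were below both of X3. NC6G0259500 and NC7G0246810, also of chlorophyll binding, gave 0.87 ± 0.36 and 0.70 ± 0.36 for X3 minus L3 (limma adjusted p = 0.0611 and 0.122) and were not DEGs.

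NC5G0051170, another chlorophyll-binding gene, was low in X2 and high in X3. Its level was 89.7 and 113 FPKM in L2 and 373 and 148 in L3, and 41.5 and 71.1 FPKM in X2 and 583 and 607 in X3. The X2 libraries were below those of L2 and the X3 libraries above those of L3. It rose from X2 to X3 by 3.43 ± 0.73 (log2, SE, limma adjusted p = 0.006). Neither species difference passed, with -0.88 ± 0.73 at stage 2 and 1.34 ± 0.73 at stage 3 (limma adjusted p = 0.356 and 0.148).

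The 3 photosystem genes that follow were not DEGs between the species at stages 2 and 3. NC11G0115830, in the KEGG pathway of photosynthesis, gave 0.26 ± 0.42 at stage 2 and 0.46 ± 0.42 at stage 3 for X minus L (limma adjusted p = 0.653 and 0.39). NC13G0026790, of photosystem I, gave -0.10 ± 0.37 and 0.53 ± 0.37 (limma adjusted p = 0.841 and 0.256), and NC9G0275080, of photosystem II assembly, 0.34 ± 0.35 and 0.79 ± 0.35 (limma adjusted p = 0.455 and 0.0799). In all 3 genes both X3 libraries lay above both of L3. NC3G0227410, of the electron transport class, was a higher DEG, with X3 minus L3 of 1.70 ± 0.45 (limma adjusted p = 0.00748). NC9G0272870, of electron transport in photosystem I, rose from 4.62 and 4.82 FPKM in X2 to 46.0 and 52.1 in X3, a log2 difference of 3.13 ± 0.48 (limma adjusted p = 0.000919).

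NC1G0107750, annotated to both photosystems and to the regulation of chlorophyll biosynthesis, had the second highest score and went the other way at stage 3. It was listed at 0.515 and 1.08 FPKM in L1, 5.27 and 4.59 in L2, 6.5 and 6.23 in L3, and 198 and 862 in L4. X-species levels were 4.91 and 18.1 FPKM in X1, 0.998 and 1.38 in X2, 0.342 and 0.461 in X3, and 14.4 and 4.77 in X4. The L4 libraries differed widely from each other and still lay far above all others. X3 was lower than L3 by 2.40 on the log2 scale, a difference of -2.40 ± 0.65 (SE, limma adjusted p = 0.00907), the only photosynthesis member that was a lower DEG there.

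**Figure D3:**
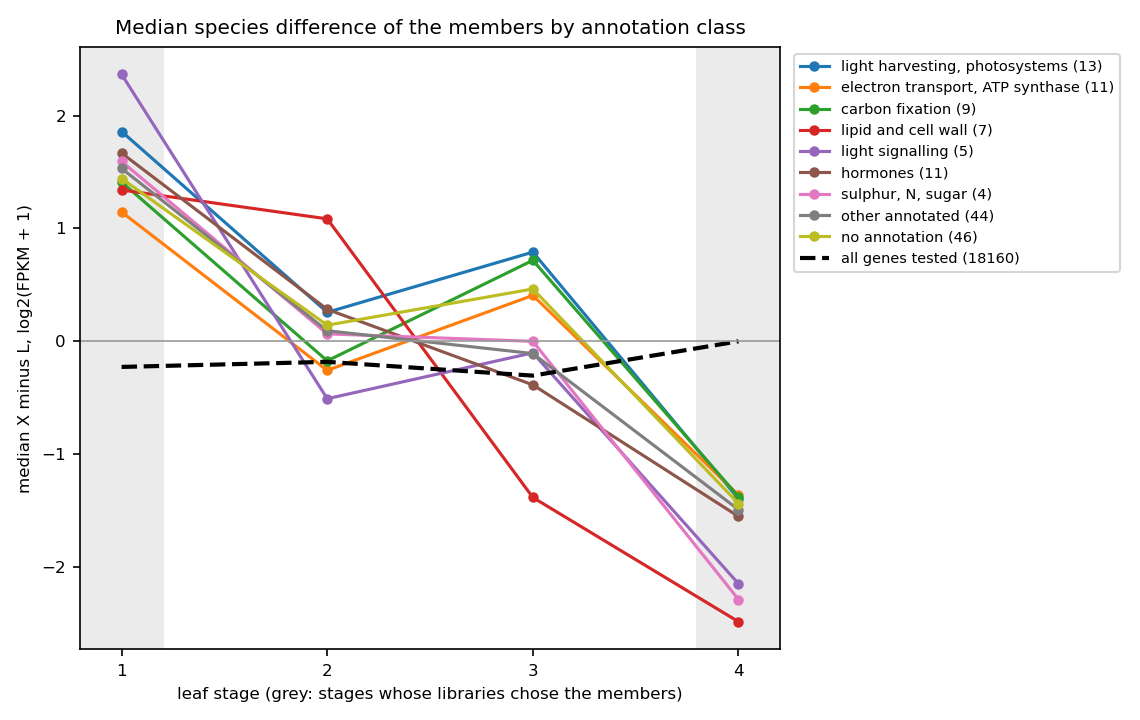
The median difference between the species (vertical, X minus L in log2(FPKM + 1)) over the members of each annotation class at each stage (horizontal), with the number of members and, dashed, the median over all 18160 genes tested; grey bands mark the stages that chose the members. All classes begin above 0 and end below it by choice, and at stage 3 the photosynthesis classes lie between 0.41 and 0.79 while the lipid and cell wall class lies at -1.38.

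The lists of photosynthesis genes chosen for comparison give the place of the members in the pathway. In the readable annotation, 8 of 10 genes of photosystem I and 7 of 12 of photosystem II were members. The 1 gene of the antenna pathway was a member too. In the KEGG pathways of photosynthesis and of carbon fixation, only 1 of 11 genes was a member in each. These lists hold genes the study found differentially expressed in these samples, so the shares are not independent of the choice. For L3 vs. X3, 3 genes of the photosystem I list were higher and 1 lower, all of them members described above. Of the 10 tested genes of the KEGG photosynthesis pathway, 2 were higher and 4 lower (6.57% and 22.2% of the genes tested). The 20 genes of the KEGG photosynthesis, antenna and carbon fixation pathways that were no members are given for comparison. Their summed level was 596 and 422 FPKM in L1 and 365 and 610 in X1, 825 and 951 in L2 and 408 and 329 in X2, 1394 and 902 in L3 and 783 and 798 in X3, and 1431 and 1397 in L4 and 445 and 375 in X4. At stage 1 the species overlapped, and at stages 2, 3 and 4 both X-species libraries were below both of the L-species. The sum was higher in both X3 libraries than in both of X2. Its part in the members' rise from X2 to X3 was not tested. Lists such as plant hormone signal transduction, cell cycle and leaf development held 0 members, which says little since members were 150 of the 18160 genes tested.

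Of the lipid and cell wall members, 6 of 7 rose from L2 to L3 (7.18% of the genes tested) and 2 of 7 from X2 to X3 (4.95%). NC2G0006930, with terms of lipid binding and transport, had the highest score of all members, 2.89. It stood at 3.41 and 0.0403 FPKM in L1, 0.946 and 0.944 in L2, 124 and 63.7 in L3, and 1620.2 and 469 in L4. X-species levels were 6.15 and 34.1 FPKM in X1, 10.3 and 2.29 in X2, 15.6 and 15.2 in X3, and 99.8 and 99.9 in X4. At stages 3 and 4 both L-species libraries were above both of the X-species, and at stages 1 and 2 both were below them. It rose from L2 to L3 by 5.53 ± 0.85 (log2, SE, limma adjusted p = 0.000732), and X3 was lower than L3 with -2.45 ± 0.85 (limma adjusted p = 0.0306), not called without replicate 1 of L3 or either replicate of X3 (adjusted p 0.0968 to 0.163).

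NC7G0289580, of the same terms, had the largest drop below the L-species of all members at stage 3. Its level was 1.42 and 0.413 FPKM in L1, 3.93 and 7.25 in L2, 333 and 163 in L3, and 251 and 102 in L4. In the X-species all 8 libraries lay between 0.58 and 5.08 FPKM, where the L3 libraries were at 163 or more. L3 was above L2 by 5.20 ± 0.48 (log2, SE, limma adjusted p = 7.75e-05), and X3 minus L3 was -5.45 ± 0.48 (limma adjusted p = 2.32e-06). The species difference at stage 3 minus that at stage 2 was -3.94 ± 0.68 (limma adjusted p = 0.0126, 0.0618 without replicate 1 of X3).

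For L3 vs. X3, 1 of the 7 members of the class was a higher DEG and 3 were lower (6.57% and 22.2% of the genes tested). NC3G0226960 was lower in X3 than in L3 with -2.34 ± 0.45 (log2, SE, limma adjusted p = 0.00107). It rose from L2 to L3 by 2.30 ± 0.45 (limma adjusted p = 0.00294). The 1 higher DEG, NC5G0160490, of lipid transport, was at 229 and 139 FPKM in L3 and 679 and 715 in X3, a log2 difference of 1.96 ± 0.72 (SE, limma adjusted p = 0.0381). NC3G0206690, a ketoreductase of very long-chain fatty acid synthesis, rose from L2 to L3 by 2.54 ± 0.62 (limma adjusted p = 0.00936, 0.104 without replicate 1 of L3), and its X3 minus L3 of -1.38 ± 0.62 did not pass (limma adjusted p = 0.0811). NC4G0137720, of cellulose synthase and secondary cell wall biogenesis, rose from L2 to L3 by 3.33 ± 0.54 (limma adjusted p = 0.00101). X3 minus L3 was -0.26 ± 0.54 (limma adjusted p = 0.717), with 80.6 and 71.6 FPKM in L3 and 71.5 and 56.1 in X3. The 7 genes of the KEGG pathway of cutin, suberine and wax, taken as markers of the epidermis, summed to 143 and 100.0 FPKM in L3 and 118 and 89.8 in X3, and to 41.1 and 32.6 in L4 and 29.8 and 27.1 in X4. Their part in the result was not tested.

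Members of light signalling were below or near the L-species at stages 2 and 3. The mean of X2 was below that of L2 in all 5, and so was X3 below L3, but with median-ratio scaling X3 was above L3 in 3 of the 5. None of the 5 was a DEG between the species at these stages by limma, where 25.3% and 28.8% of the genes tested were. NC1G0128600, of photomorphogenesis, gave -0.96 ± 0.27 at stage 3 (log2, SE, limma adjusted p = 0.0103), under the size for a DEG. NC13G0194800, of blue light signalling and the response to karrikin, stood at 22.7 and 23.5 FPKM in L2 and 18.7 and 13.6 in X2, and at 129 and 136 in L4 and 25.3 and 20.5 in X4. NC7G0236450, with the term circadian rhythm, reached 2026 and 2413 FPKM in L4 against 646 and 384 in X4, while both species overlapped at stage 3. It rose from X2 to X3 by 2.51 ± 0.68 (log2, SE, limma adjusted p = 0.021), a call lost without replicate 1 of X2 or either replicate of X3 (adjusted p 0.0938 to 0.118). The time of day of sampling is not given in the labels.

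Hormone members did not move as a group. At stage 2, 1 of 11 was higher and 1 lower in the X-species as DEGs (6.18% and 19.1% of the genes tested). At stage 3, 2 were higher and 2 lower (6.57% and 22.2%). NC9G0272120, of auxin-activated signalling, was higher at both, by 1.84 ± 0.40 and 2.44 ± 0.40 (log2, SE, limma adjusted p = 0.0027 and 0.000345). Its L2 libraries were near 0. X3 exceeded L3 by 1.11 ± 0.30 in NC8G0216710 (limma adjusted p = 0.0087). NC10G0033100 was lower with -1.25 ± 0.29 (limma adjusted p = 0.00361). NC1G0104330, of abscisic acid signalling and defense, was lower in X3 (5.18 and 5.24 FPKM) than in L3 (27.6 and 39.0), with a log2 difference of -2.45 ± 0.29 (SE, limma adjusted p = 3.06e-05). NC2G0286770, of cytokinin biosynthesis, was lower in X2 (0.463 and 1.91 FPKM) than in L2 (5.17 and 4.13), with -1.45 ± 0.45 (limma adjusted p = 0.0215), a call lost without either replicate of L2 or replicate 1 of X2 (adjusted p 0.0579 to 0.144). It then rose from X2 to X3 by 2.42 ± 0.45 (limma adjusted p = 0.00296). NC1G0128610, with the term secondary shoot formation and the fifth highest score, was near the limit of detection in L1 and at stages 2 and 3. It was listed at 0.121 and 0.172 FPKM in L1, at 0.107 and 0.418 in L2, and at 0 in both X2 libraries. NC5G0183430, an esterase with terms of auxin and jasmonic acid metabolism, gave 1.30 ± 0.52 at stage 2 and -0.39 ± 0.52 at stage 3 (limma adjusted p = 0.058 and 0.561).

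Among sulphur and sugar genes, NC1G0088830, a sucrose synthase of the KEGG pathway of starch and sucrose metabolism, was higher in X3 (7.09 and 5.07 FPKM) than in L3 (1.2 and 0.442) by 1.98 ± 0.48 (log2, SE, limma adjusted p = 0.00497). In mature leaves it was lower in the X-species, at 48.6 and 25.7 against 83.3 and 195 FPKM. The serine O-acetyltransferases NC2G0037930 and NC8G0124170, of cysteine synthesis from serine, gave -0.47 ± 0.45 and -0.66 ± 0.24 at stage 3 (limma adjusted p = 0.41 and 0.0407) and were not DEGs, the second for the size of its difference. NC3G0231320, of anthocyanin biosynthesis, and NC3G0225430, of glycerophospholipid metabolism, gave 0.09 ± 0.31 and -0.89 ± 0.24 (limma adjusted p = 0.838 and 0.00839) and were likewise not called.

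The difference between the species changed from stage 2 to stage 3 in 11 members (2.74% of the genes tested), 10 of them downward (1.7%) and 1 upward (1.04%). The count was 7 without replicate 1 of L2, 3 without replicate 2 of L2, 6 without replicate 1 of L3, 17 without replicate 1 of X2, 2 without replicate 1 of X3 and 3 without replicate 2 of X3. NC1G0182310 and NC1G0182300 had consecutive ID numbers and both had the term O-methyltransferase activity. NC1G0182310 had its highest mean at stage 2 in the X-species and at stage 3 in the L-species. It was at 5.85 and 9.06 FPKM in L2, 79.7 and 61.1 in L3, and 10.3 and 7.57 in L4. X-species levels were 38.3 and 87.1 FPKM in X2, 14.9 and 16.4 in X3, and 0.462 and 0.746 in X4. X2 was above L2 by 2.82 ± 0.51 (log2, SE, limma adjusted p = 0.000706) and X3 below L3 with -2.09 ± 0.51 (limma adjusted p = 0.0046), without overlap at either stage. The change was -4.91 ± 0.71 (limma adjusted p = 0.00499), called in all 8 fits that left out a library. NC1G0182300 stood at 11.6 and 17.0 FPKM in L2 and 15.9 and 94.2 in X2, so that replicate 2 alone of X2 was high, and at 113 and 89.6 in L3 and 16.3 and 18.2 in X3. X3 minus X2 was -1.14 ± 0.67 (limma adjusted p = 0.261). Its change was -3.89 ± 0.94 (limma adjusted p = 0.0497), called in 1 of those 8 fits (adjusted p 0.0047 to 0.158). If such neighbours are near-identical copies, their reads could be divided between them and their values would be less certain. No sequence was at hand to check this.

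**Figure D4:**
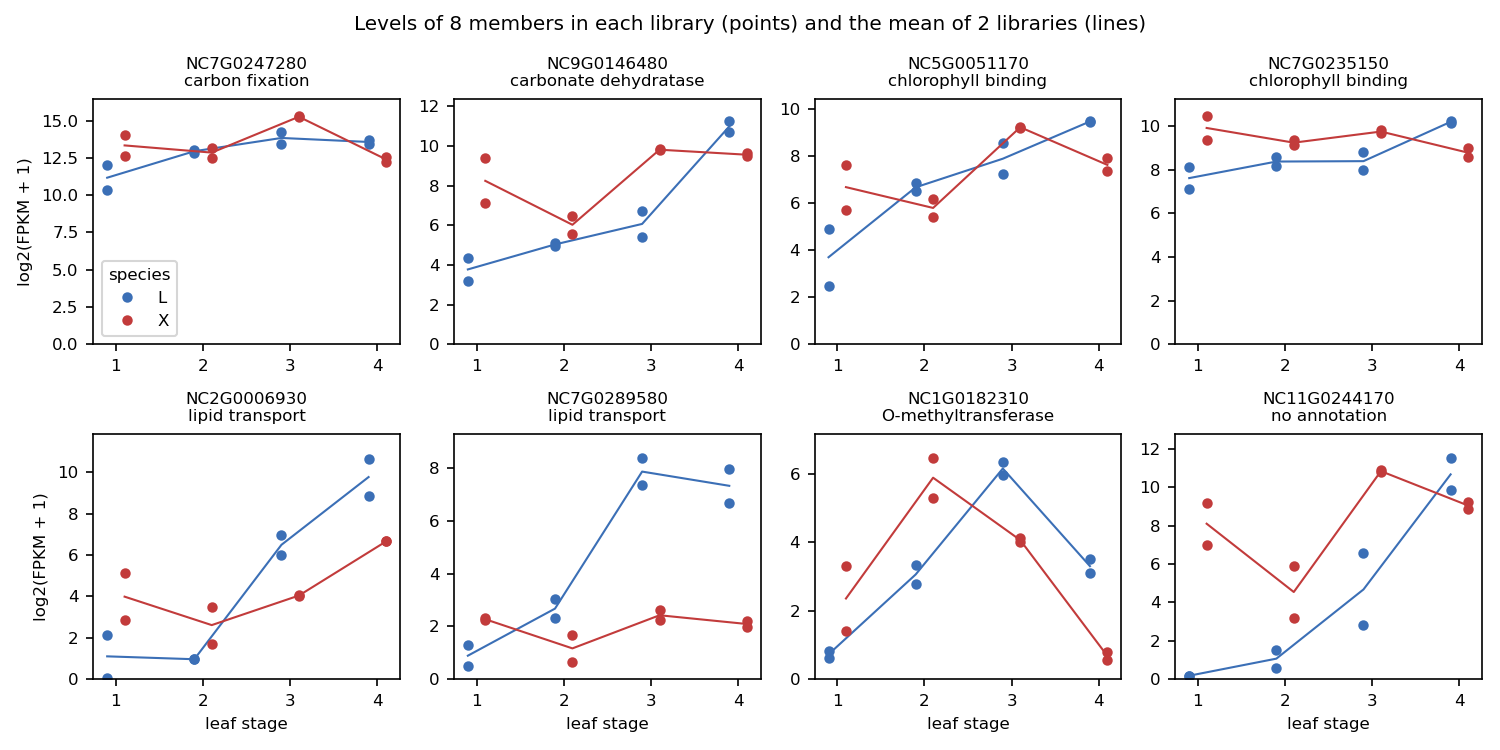
The level of 8 members (panels, with their term) at each leaf stage in log2(FPKM + 1), where points are libraries, lines join the means of 2 libraries, and blue and red are the L-species and the X-species. NC7G0247280 is highest in X3, NC7G0289580 stays between 0.58 and 5.08 FPKM in the X-species, and NC1G0182310 peaks at stage 2 in the X-species and at stage 3 in the L-species.

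Members without a term also held large differences. NC11G0244170 stood at 0.129 and 0.130 FPKM in L1, 0.509 and 1.91 in L2, 93.0 and 5.95 in L3, and 2909 and 921 in L4. X-species levels were 129 and 584 FPKM in X1, 8.11 and 58.6 in X2, 1782 and 1900.2 in X3, and 599 and 470.0 in X4. The libraries of L3 and of X2 differed widely from each other, those of L1 and X3 little. X3 exceeded L3 by 6.17 ± 1.13 (log2, SE, limma adjusted p = 0.000748). X2 exceeded L2 by 3.48 ± 1.13 (limma adjusted p = 0.0254), the largest difference of a member called at stage 2, a call lost without either replicate of L2 or replicate 2 of X2 (0.0561 to 0.206). NC1G0180250 was higher in the X-species at both tested stages, with 2.30 ± 0.41 at stage 2 (limma adjusted p = 0.000638) and 4.73 ± 0.41 at stage 3 (limma adjusted p = 1.87e-06). Its libraries read 53.2 and 72.4 FPKM in L3 and 1504 and 1848 in X3, and 318 and 429 in L4 against 160.2 and 73.6 in X4. It was the 1 member whose difference changed upward, by 2.42 ± 0.57 (limma adjusted p = 0.0455), in 2 of the 8 fits without a library.

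NC11G0241650 reached 4360.3 and 5092 FPKM in X3 against 952 and 579 in L3, a log2 difference of 2.66 ± 0.63 (SE, limma adjusted p = 0.00389). NC13G0027730, with terms of cell redox homeostasis, was higher in X3 (30.4 and 33.6 FPKM) than in L3 (5.64 and 4.50) by 2.45 ± 0.66 (limma adjusted p = 0.00902, 0.0521 without replicate 2 of L3). NC7G0235200 was lower in X3 (0.483 and 1.12 FPKM) than in L3 (11.7 and 11.7), with -2.84 ± 0.33 (limma adjusted p = 2.11e-05). Its difference at stage 2 was -0.90 ± 0.33 (limma adjusted p = 0.0405), under the size for a DEG, and the change between the stages was -1.94 ± 0.46 (limma adjusted p = 0.0456), called in 2 of the 8 fits without a library. Other members higher in X2 included NC9G0091490, with the term transmembrane transporter activity, and NC1G0129000, which had no term. NC9G0091490 was at 1.44 and 1.02 FPKM in L2 and 12.2 and 23.5 in X2, a difference of 3.02 ± 0.39 (limma adjusted p = 5.95e-05). NC1G0129000 was at 4.69 and 2.25 FPKM in L2 and 19.1 and 40.6 in X2, a difference of 2.75 ± 0.51 (limma adjusted p = 0.000929).

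Of the remaining members with the highest scores, several were not DEGs between the species at stages 2 and 3. NC7G0235160, which had the third highest score and no term, was at 4.56 and 2.96 FPKM in L2 and 3.57 and 2.95 in X2, against 73.6 and 121 in L4 and 11.8 and 12.1 in X4. NC8G0099220, of iron ion homeostasis, and NC6G0156790, of the plastoglobule, gave -0.98 ± 0.58 and 0.32 ± 0.37 for X3 minus L3 (limma adjusted p = 0.177 and 0.507). NC9G0172890, of cell redox homeostasis, gave 0.73 ± 0.41 (limma adjusted p = 0.159), and its rise from X2 to X3 of 1.72 ± 0.41 (limma adjusted p = 0.0113) was lost without replicate 1 of X2 or either replicate of X3 (0.0504 to 0.0673).

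Others were DEGs at one of these stages. NC4G0152490, with no term, was higher in X2 (6.85 and 15.4 FPKM) than in L2 (2.52 and 2.22) by 1.75 ± 0.33 (log2, SE, limma adjusted p = 0.000962). NC11G0118240, also with no term, was higher in X2 (11.4 and 9.95 FPKM) than in L2 (1.84 and 1.66) by 2.09 ± 0.30 (limma adjusted p = 0.00012), and at stage 3 gave 0.06 ± 0.30 (limma adjusted p = 0.883). Lower in X2 than in L2 were NC8G0217850 with -1.91 ± 0.48, NC2G0287410 with -1.45 ± 0.48 and NC8G0305540 with -1.33 ± 0.39 (limma adjusted p = 0.00622, 0.0273 and 0.0156). The first was not called without replicate 2 of X2 (0.0624), and the others not without either replicate of L2 or replicate 1 of X2 (0.061 to 0.157). NC9G0168780, listed at 0 in 1 library of L1 and 1 of X2, gave 1.32 ± 0.43 for X3 minus L3 (limma adjusted p = 0.0231), lost without replicate 2 of L3 or of X3 (0.155 and 0.16). NC10G0166410 gave -1.04 ± 0.40 (limma adjusted p = 0.0452), lost in 6 of 8 fits without a library.

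Reads counted on genes and the summed level of markers of dividing cells differed between groups, and both are given beside these values. The L-species libraries held 37118842 to 51396582 counted reads and the X-species libraries 24815135 to 31440253, so low levels are measured more coarsely in the X-species. Median reads a gene were 61.5 and 19.5 over all 31475 genes of the data, 7542 of them without a read, and not over the genes tested. The study's counts of clean reads overlapped between the species, and the cause of the gap in counted reads was not tested. The 41 genes taken as markers of dividing cells summed to 554 and 670 FPKM in L1 and 432 and 350.3 in X1, to 505 and 397 in L2 and 355 and 440.1 in X2, to 190.5 and 251 in L3 and 158 and 136 in X3, and to 248 and 163 in L4 and 176 and 162 in X4. The sum was lower at stage 3 than at stage 2 in both species, where most called members rose, and both X3 libraries were below both of L3. The lists pooled in the sum went different ways between the species. The median of X3 minus L3 was 1.33 for the 4 genes of DNA replication, -0.94 for the 12 of cell cycle and -0.84 for the 25 of the kinesin complex. The part of these markers in the members' differences was not tested, nor was the match of X-species reads to the gene models behind the IDs.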

How the data were processed

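Per the labels and the methods of the study, the authors extracted leaf RNA by CTAB, made poly(A) libraries, counted reads on genes with HTSeq and derived FPKM by Cufflinks. The deposited table holds FPKM of 31475 genes. The submitters' processing notes name CASAVA 1.8, fastp 0.20.0, HISAT2 2.1.0, Cufflinks 2.2.1, HTSeq 0.7.2 and DESeq, whereas the study's methods describe a de novo assembly, and the genome build behind the gene IDs is not given in the sources used here. The study describes 3 biological repeats, of which 2 a group were analysed here, and 0 columns were left unmapped. Of the IDs, 0 matched the RefSeq gene table, and no sequence is shown.

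Values were transformed to log2(FPKM + 1). Differences were tested with limma 3.58.1 (trend, 8 group means) in R 4.3.3 over the 18160 genes with at least 1 FPKM in at least 2 libraries, and called at an adjusted p under 0.05 and a log2 difference of at least 1 in size. Where a group was at or near 0, the fitted difference depends on the pseudocount. Whole reads and library totals were recovered from the FPKM (100.00% of values within 0.01 reads of a whole number). The steps were tested on simulated data. Tables and figures were made in Python 3.11.15 (matplotlib 3.10.9, pandas 2.3.3, numpy 2.4.6). Replicates of a group were not copies of each other. Same-numbered libraries of both species at the same stage had deviations that correlated at -0.492 to -0.013, so the numbers were not used as pairs.

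The members, the lists and the tests were chosen with earlier results of these data known. Genes named were the 15 with the highest scores, members in a KEGG pathway, in a chosen list or named in the study, the 5 largest and 5 smallest differences among DEGs at stages 2 and 3 and in the change between them, and the 3 genes on each side of the limit. NC5G0160490, NC9G0272870 and the 4 reductive pentose-phosphate cycle genes were added after their values were seen. So were NC3G0226960, NC9G0272120, NC8G0216710, NC10G0033100, NC13G0027410, NC3G0227410 and NC1G0128600. Alternatives were a pseudocount of 0.1, other filters, median-ratio scaling, a replicate block, a fit of stages 2 and 3 only, voom on the recovered reads, and leaving out each library.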

Additional observations from a re-analysis of the deposited data

Results flagged for a closer look

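The difference between the species changed from stage 2 to stage 3 in 11 members by limma, and this test of the difference itself is what flagged them. The named cases were NC1G0182310 (-4.91 on the log2 scale), NC7G0289580 (-3.94), NC1G0182300 (-3.89), NC9G0091490 (-2.35), NC11G0118240 (-2.03), NC7G0235200 (-1.94) and NC1G0180250 (2.42). NC1G0182310 was called in all 8 fits that left out a library and NC7G0289580 in 7, against 1 to 3 of 8 for the others.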

How the results depend on the processing

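The counts for L2 vs. X2, L3 vs. X3, X2 vs. X3 and L2 vs. L3 stayed within 1.5 times the reported ones under a pseudocount of 0.1, other filters, median-ratio scaling, a fit of stages 2 and 3 only, voom and unadjusted p-values. The 11 members whose species difference changed between stages 2 and 3 became 7 with a pseudocount of 0.1, 7 with no filter, 3 in a fit of stages 2 and 3 only, 5 by voom and 27 at an unadjusted p under 0.05. A replicate block gave 7, and numbers crossed in the X-species, added after seeing the data, gave 10. The block moved no other of these counts by over 1.5 times. Leaving out a library gave 17 to 27 DEGs for L2 vs. X2, 26 to 38 for L3 vs. X3, 2 to 17 for the change between the stages, 17 to 54 for X2 vs. X3 and 20 to 49 for L2 vs. L3. Members still among the top 150 numbered 92 to 140 without a library. The mean of X was above that of L in 71 to 89 members at stage 2 and 74 to 96 at stage 3. Among the members still past the rule without replicate 2 of X1 (92) or of L1 (101), also added later, 20 and 18 were DEGs for L2 vs. X2, 30 and 32 for L3 vs. X3, 27 and 39 for X2 vs. X3, and 25 and 31 for L2 vs. L3. Of 79 calls of named members, leaving aside genes added after their values were seen, 33 held in all 8 fits without a library. None of the 79 reversed in the 16 alternatives. The cause of these shifts was not tested. With 2 libraries a group and fewer reads counted on genes in the X-species, small differences of low genes were not detectable.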
